A study of Mus musculus with 3 samples.

Results

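The genes described here carry FGF and Nodal signals or mark the passage of pluripotent cells from the naive to the primed state. They were Fgf4, Fgf5, Fgf8, Nodal, Tdgf1, Lefty1, Lefty2, Otx2 and Pou3f1, 9 of the 27886 genes listed in at least 1 of 3 tables of single-cell counts. They were taken by name, with earlier results of these data known. All 9 were listed for mouse embryonic stem cells (mESC) and for cardiac precursor cell cultures (CPCC), and 8 were listed for cardiac bodies (CB). Fgf4 was not listed for CB and has no value there.

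All cells were male F1 cells of the cross C57BL/6 x CAST/EiJ, grown in vitro. The mESC were cultured with serum, LIF, PD0325901 and CHIR99021, which are inhibitors of MEK, the kinase that acts below FGF receptors, and of the kinase GSK3. The CPCC were obtained by dissociating embryoid bodies and passaging the cells in medium with EGF and Fgf2, and the labels call them Cardiac Precursor Cells. The CB were beating bodies grown from cell aggregates with ascorbic acid, labelled Mature Cardiac Cells, and were not made from the CPCC. Each culture was 1 sample, so no test between cultures was possible, and cells of 1 sample were not treated as replicates. Column names gave 3 pools of libraries in mESC, 2 in CPCC and 3 in CB. The mESC sample is labelled a triplicate, but the labels do not tie pools to clones or cultures, and pools are shown as values only.

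Values were available for 215 cells of mESC, 175 of CPCC and 232 of CB, with median totals of 1528320, 1437410 and 1397870 counts per cell. Totals of 100000 counts or more were reached by 203, 169 and 219 cells. Levels below are CPM, the counts of a gene summed over cells and scaled to a fixed total, and 1 count or more made a gene detected. Intervals of shares of cells are exact binomial ones at 95% that take the cells of 1 sample as independent draws. They cover counting error only and not the spread between samples. Depth counts reads and not molecules, since reads were counted without molecular identifiers and copies of 1 molecule add up. Markers set the frame for the 9 genes. The summed level of 10 naive pluripotency genes was 1846 CPM in mESC, 537 in CPCC and 305 in CB, where Dppa3 was not listed. In CB, Klf4 was at 129 and Klf2 at 80.3 CPM, but Zfp42 at 2.23 and Esrrb at 0.112 CPM. In mESC these genes were at 56.8, 183, 548 and 134 CPM, so the CB sum is not read as a level of naive cells. The summed level of 7 mesenchyme and smooth muscle genes was 44.4 CPM in mESC (Acta2, Col3a1 and Postn not listed), 6580 in CPCC and 7493 in CB. The CB pools were at 11717, 1911 and 10785 CPM. The cardiomyocyte list of 10 genes summed to 62.2 CPM in mESC (Nppa and Nkx2-5 not listed), 113 in CPCC and 294 in CB. The CB pools were at 130, 675 and 15.8 CPM, so the high CB value was that of pool 2, and pool 3 lay below mESC. Within CPCC the pools differed, with naive genes at 957 CPM in pool 1 and 144 in pool 2, and 6 macrophage genes at 16.5 and 3620 CPM. Fewer cells of a type and less RNA per cell cannot be told apart in summed values. Chambers that caught several cells are not marked in the tables.

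In the mouse, naive pluripotent cells express Zfp42 (also called Rex1), Klf4 and Esrrb beside Pou5f1 (Oct4), and primed cells of the later epiblast lose the naive genes, keep Pou5f1 and gain Fgf5, Otx2 and Pou3f1. Fgf4 is secreted by pluripotent cells and acts through FGF receptors and MEK, a signal that naive cells need in order to leave their state. Nodal is a TGF-beta family ligand that binds activin receptors together with its co-receptor Tdgf1 (Cripto), acts through Smad2, Smad3 and Foxh1, and switches on its own antagonists Lefty1 and Lefty2. The same signals later pattern mesoderm and the heart field.

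Positions are those of GRCm38 with the GENCODE M21 annotation, and the values count reads over whole genes. The FGF ligand genes were Fgf4 at chr7:144847367-144865243, Fgf5 at chr5:98254184-98277030 and Fgf8 at chr19:45736798-45742915. Nodal lies at chr10:61417972-61425338 and Tdgf1 at chr9:110939603-110946158. Lefty2 at chr1:180893108-180899103 and Lefty1 at chr1:180935022-180938400 lie on the same strand of chromosome 1. Otx2 lies at chr14:48657677-48673819 and Pou3f1 at chr4:124656807-124660655. Reads of a few members can belong to another gene. Otx2 is overlapped on the opposite strand by Otx2os1, which was listed in all 3 tables, and Pou3f1 by Gm2164, which was listed in none. Whether counting used strand was not stated, so reads of these pairs cannot be told apart. Of all stretches of 100 bases in Tdgf1 transcripts, 3.17% were also present in the pseudogene Tdgf1-ps1.

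Lefty1 and Lefty2 shared 97 stretches of 100 bases, 5.85% of those in Lefty1 and 3.86% of those in Lefty2. Reads that fall inside these stretches cannot be assigned to either gene, and the balance between the genes is described further on.

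RefSeq promoters on GRCm38.p6 were available for 5 of the 9 members, Fgf4, Fgf5, Nodal, Tdgf1 and Otx2. The 250 bases before the start were searched on both strands for AATNCACA (the FOXH1 core), CAGAC (the SMAD element) and ATGCAAAT (the octamer of POU factors), none of which contains another. Of 32851 promoters, 3.18% held the FOXH1 core, 42.2% the SMAD element and 1.60% the octamer. Among the members, Tdgf1 held 1 SMAD element, whose first base lies 113 bases before the start, and no other match was found. The windows of Fgf5, the member with the highest ratio of CPCC to mESC, and of the pair Nodal and Tdgf1 are shown, with the matched bases in capitals. They span chr5:98253934-98254183 and chr10:61417722-61417971 on the plus strand and chr9:110946159-110946408 on the minus strand.
Fgf5: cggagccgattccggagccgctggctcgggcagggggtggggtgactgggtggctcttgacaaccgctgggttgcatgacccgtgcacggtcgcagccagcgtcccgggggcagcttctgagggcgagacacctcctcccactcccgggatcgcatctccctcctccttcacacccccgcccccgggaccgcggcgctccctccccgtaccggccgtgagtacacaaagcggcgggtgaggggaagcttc
Nodal: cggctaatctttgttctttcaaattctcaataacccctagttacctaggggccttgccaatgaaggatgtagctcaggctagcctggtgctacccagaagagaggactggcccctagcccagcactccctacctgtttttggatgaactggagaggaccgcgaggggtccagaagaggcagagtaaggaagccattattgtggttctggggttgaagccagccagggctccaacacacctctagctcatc
Tdgf1: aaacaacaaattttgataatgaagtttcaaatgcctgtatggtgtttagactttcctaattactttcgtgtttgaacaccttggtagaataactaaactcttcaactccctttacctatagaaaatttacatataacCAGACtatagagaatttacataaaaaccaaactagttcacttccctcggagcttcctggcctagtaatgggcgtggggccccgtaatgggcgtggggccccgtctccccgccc

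The FGF ligands differed in opposite directions between mESC and CPCC. Fgf4 was at 127 CPM in mESC (pools 132, 139 and 107) and 49.9 CPM in CPCC (pools 86.2 and 15.9), and the pools of the cultures did not overlap. It was detected in 204 of 215 mESC (94.9%, 95% interval 91.0 to 97.4) and 88 of 175 CPCC cells (50.3%, 42.6 to 57.9). Fgf5 was at 0.239 CPM in mESC, where 2 cells of pool 3 held all 84 counts and 1 of them 96.4%. In CPCC it reached 21.3 CPM (pools 7.23 and 34.5) and was detected in 42 of 175 cells (24.0%, 17.9 to 31.0). Among the CPCC cells with Fgf5 the median was 72.9 CPM and the highest value 826 CPM, so a minority of cells carried the level of the culture. In CB it was at 4.24 CPM, from 3 cells of pool 2 of which 1 held 91.3% of the counts.

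Fgf8, a ligand of the primitive streak and of heart-forming mesoderm, was the member whose CPCC pools differed most. It was at 0.288 CPM in mESC (pools 0.760, 0.0801 and 0.0581), 6.49 CPM in CPCC (pools 0.270 and 12.3) and 10.7 CPM in CB (pools 1.28, 18.6 and 7.42). Detection was found in 10 of 215 mESC (4.65%, 2.25 to 8.39), 24 of 175 CPCC cells (13.7%, 8.99 to 19.7) and 16 of 232 CB cells (6.90%, 3.99 to 11.0). CPCC pool 1 lay within the range of the mESC pools, so the higher level of CPCC was that of pool 2. In CB, 1 cell held 99.8% of the Fgf8 counts of pool 3 and another 98.8% of those of pool 1.

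Nodal and its co-receptor were found in most mESC and in few CB cells, and in CPCC the pools differed, with Nodal in 72.2% and Tdgf1 in 87.3% of the cells of pool 1 against 42.7% and 44.8% in pool 2. Nodal was at 80.3 CPM in mESC (pools 122, 64.0 and 57.6), 50.2 CPM in CPCC (pools 59.7 and 41.3) and 8.21 CPM in CB, where 5 cells of pool 2 held all of it. It was detected in 82.3% of mESC (76.6 to 87.2), 56.0% of CPCC cells (48.3 to 63.5) and 2.16% of CB cells (0.703 to 4.96). The mESC and CPCC pools overlapped in level. Tdgf1 was at 585 CPM in mESC (pools 392, 664 and 685), 375 CPM in CPCC (pools 459 and 296) and 7.84 CPM in CB, and its mESC and CPCC pools overlapped. It was detected in 208 of 215 mESC, 112 of 175 CPCC and 3 of 232 CB cells, and 1 CB cell held 99.0% of the CB counts.

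The antagonists Lefty1 and Lefty2 differed in opposite directions between mESC and CPCC. Lefty2 was at 195 CPM in mESC (pools 334, 130 and 131) and 54.4 CPM in CPCC (pools 74.0 and 36.0). Lefty1 was at 39.2 CPM in mESC (pools 71.3, 21.5 and 28.2) and 111 CPM in CPCC (pools 93.7 and 126). The pools of mESC and CPCC did not overlap for Lefty2. For Lefty1 this rested on 1 cell of CPCC pool 1, which held 44.5% of that pool's Lefty1 counts, and without it the pool was at 52.6 CPM, below mESC pool 1. The share of cells with Lefty1 went the other way than its level, from 60.0% of mESC (53.1 to 66.6) to 40.6% of CPCC cells (33.2 to 48.2), and no order of expression is read from the share. Among cells that had any Lefty1 the median was 35.1 CPM in mESC (pools 57.6, 21.5 and 25.8) and 72.8 CPM in CPCC (pools 25.6 and 226), with a highest value of 3734 CPM in CPCC. The median of CPCC pool 1 lay within the range of the mESC pools, so the higher median of CPCC was that of pool 2. In CB, Lefty1 was at 4.36 CPM in 11 cells and Lefty2 at 2.20 CPM in 3 cells.

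Of the transcription factors, Otx2 lay within 2-fold between the cultures in level and differed much in how it was spread. Without mESC pool 1, Otx2 was at least 2-fold lower in CPCC than in mESC. It was at 37.7 CPM in mESC (pools 19.5, 54.4 and 35.0), 21.3 in CPCC (pools 19.0 and 23.4) and 34.1 in CB (pools 20.2, 42.3 and 32.5), and the pool ranges of mESC and CB overlapped. It was detected in 122 of 215 mESC, 53 of 175 CPCC and 47 of 232 CB cells, while the median among cells with Otx2 was 43.2, 51.4 and 140 CPM. Otx2 was therefore held at a higher level by fewer cells in CB. Pou3f1 (Oct6), a POU factor of the epiblast and of neural cells, was at 2.12 CPM in mESC (pools 1.63, 2.02 and 2.79), 10.3 CPM in CPCC (pools 10.7 and 9.85) and 1.55 CPM in CB (pools 1.03, 0.962 and 2.31). It was detected in 21.4% of mESC (16.1 to 27.5), 45.7% of CPCC cells (38.2 to 53.4) and 5.60% of CB cells (3.02 to 9.39). Pou3f1 was the member whose higher level in CPCC differed least between the CPCC pools.

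**Figure D1:**
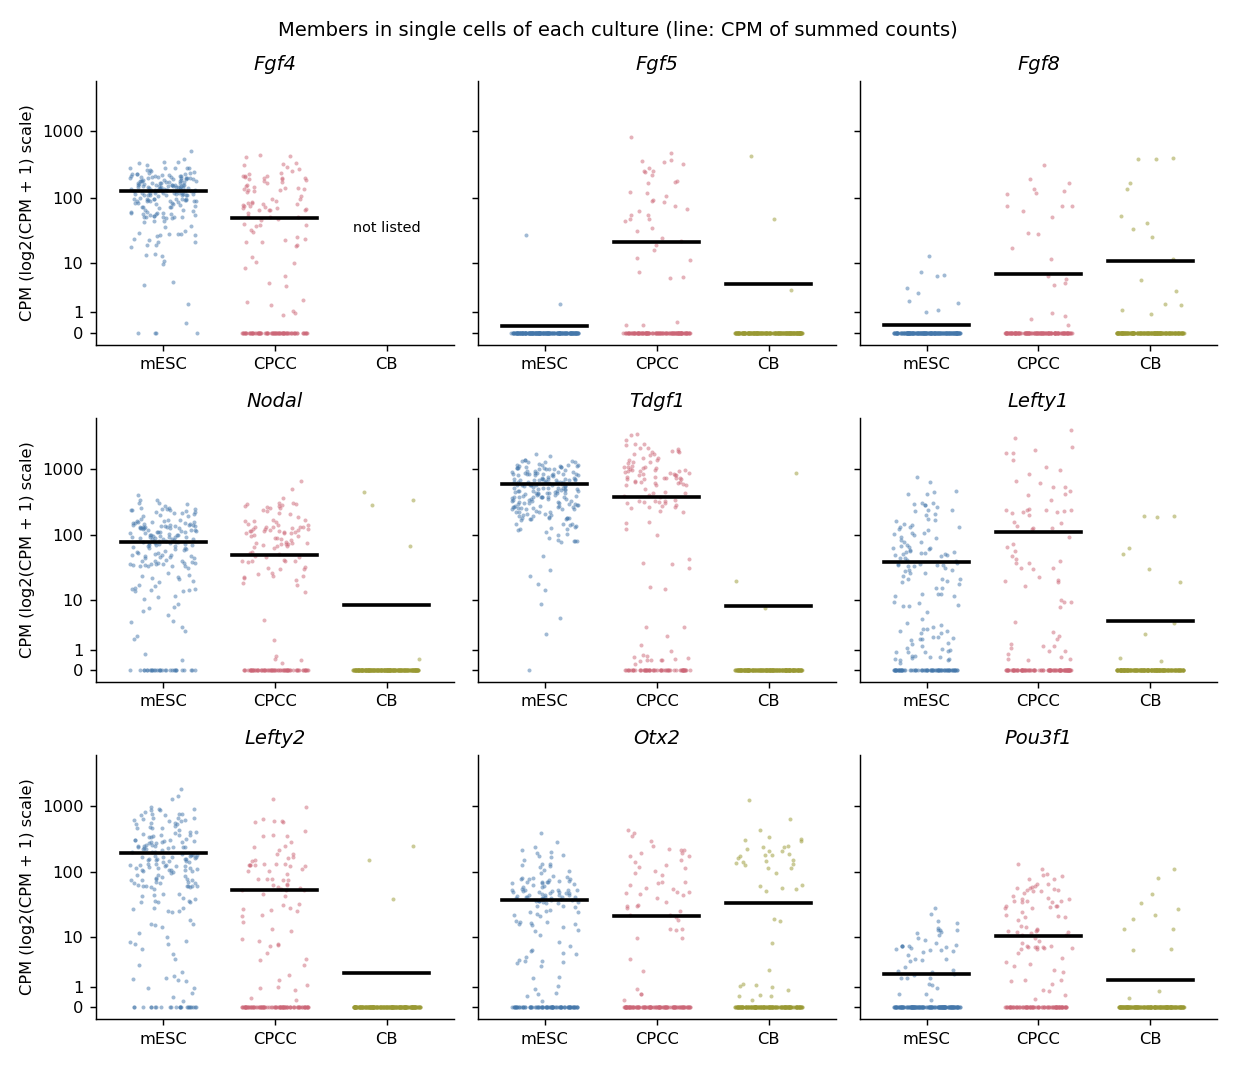
CPM of each member in single cells with 100000 counts or more (points, log2(CPM + 1) scale) in mESC, CPCC and CB, with the CPM of the summed counts as a line. Fgf4, Nodal, Tdgf1 and the Lefty genes filled most mESC, whereas Fgf5 and Fgf8 were at 0 in most cells of every culture and reached over 100 CPM in single CPCC and CB cells.

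Ratios between cultures were formed as log2 of (CPM + 1), which understates the change of low genes, and a gene was counted at 2-fold or more. Of the 9 members, 4 were at least 2-fold higher in CPCC than in mESC, Fgf5 (log2 ratio 4.17), Fgf8 (2.54), Pou3f1 (1.85) and Lefty1 (1.47), beside 17.5% of the 15471 genes compared. Lefty2 (-1.82) and Fgf4 (-1.33) were at least 2-fold lower, beside 8.36% of all genes. Fgf4 passed this mark through CPCC pool 2, without which its log2 ratio was -0.56. Otx2 (-0.80), Nodal (-0.67) and Tdgf1 (-0.64) lay within 2-fold. The sign was the same in all 6 pairs of a CPCC and a mESC pool for Fgf5, Pou3f1, Lefty1, Lefty2 and Fgf4, for Lefty1 only with the cell of CPCC pool 1 named above. For Fgf8 it was the same in 5 of 6 pairs, and the log2 ratio without CPCC pool 2 was -0.02.

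In CB, 4 of the 8 listed members were at least 2-fold lower than in mESC, Tdgf1 (-6.05), Lefty2 (-5.93), Nodal (-3.14) and Lefty1 (-2.91), beside 14% of 16018 genes. All 9 pairs of pools had this sign for each of these genes. Fgf8 (3.18) and Fgf5 (2.08) were at least 2-fold higher, beside 30.8% of all genes, and Fgf5 rested on CB pool 2, without which its log2 ratio was -0.31. Otx2 (-0.14) and Pou3f1 (-0.29) lay within 2-fold. Set against CPCC, 6 of 8 members were at least 2-fold lower in CB, beside 9.44% of 16764 genes, namely Tdgf1 (-5.41), Lefty1 (-4.38), Lefty2 (-4.11), Nodal (-2.47), Pou3f1 (-2.15) and Fgf5 (-2.09). None was at least 2-fold higher, beside 21.3% of all genes. The median log2 ratio over all genes was 0.29 for CB and -0.01 for CPCC against mESC. The 3 comparisons share samples.

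Per kilobase of exon, the order of the members could be compared within a culture. In mESC it ran from Tdgf1 (223 CPM per kb) through Lefty2 (74.5), Fgf4 (39.9), Nodal (38.3), Lefty1 (22.3) and Otx2 (8.93) to Pou3f1 (0.551), Fgf8 (0.213) and Fgf5 (0.0956). In CPCC it was Tdgf1 (143), Lefty1 (62.9), Nodal (24.0), Lefty2 (20.8), Fgf4 (15.6), Fgf5 (8.52), Otx2 (5.04), Fgf8 (4.80) and Pou3f1 (2.67). Lefty2 stood above Lefty1 in mESC and below it in CPCC. In CB, Otx2 (8.07) and Fgf8 (7.90) led.

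The other genes of both pathways did not all differ in the direction of their ligands. Among 11 FGF response and feedback genes compared, 7 were at least 2-fold higher in CPCC than in mESC and 1 was lower, with a list median of 2.09. Over all genes these shares were 17.5% and 8.36%, and the counts of the lists below are read beside them. Dusp6, a phosphatase that switches ERK off, was at 3.02 CPM in mESC and 112 CPM in CPCC, and the ETS factor Etv4 at 0.0826 and 17.6 CPM. Etv5, a relative of Etv4, was lower, at 195 and 81.1 CPM, but CPCC pool 1 (105 CPM, against 59.1 in pool 2) lay within 2-fold of mESC. The mESC medium held a MEK inhibitor and the CPCC medium held Fgf2, so the medium and the cell state cannot be told apart in these values. Of 8 FGF receptors and co-receptors, 2 were higher and 1 lower, and the co-receptor Klb went from 43.3 to 3.05 CPM whereas Fgfr1 was at 35.3 and 37.2 CPM. Of 5 other FGF ligands compared, 3 were higher, among them Fgf15 (0.874 and 17.3 CPM) and Fgf17 (1.33 and 11.6 CPM), and 1 was lower, Fgf3 (4.85 and 0.710 CPM), named after its values were seen.

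On the Nodal side, 1 of 9 receptors and mediators was higher and 1 lower in CPCC, namely Smad3 (9.30 and 23.3 CPM, the latter from pools at 6.02 and 39.4) and the proprotein convertase Pcsk6 (41.1 and 8.06 CPM). That list lay near the share of all genes. Of 8 Nodal-related ligands, targets and antagonists, 4 were higher, with Pmepa1, a feedback inhibitor of Smad signalling, at 11.6 and 56.1 CPM, and 1 was lower, the ligand Gdf3 (266 and 127 CPM). Both calls rested on CPCC pool 2, since Pmepa1 was at 23.2 and 87.0 CPM and Gdf3 at 237 and 23.1 CPM in pools 1 and 2, and on the log2(CPM + 1) scale pool 1 alone lay within 2-fold of mESC, for Pmepa1 barely so. Of 10 other primed-state genes, 5 were higher and none lower, led by the carbonic anhydrase Car4 (0.225 and 117 CPM). Of 10 naive genes, 8 were lower and none higher, with a median of -1.80. Against mESC, CB had 7 of 8 FGF receptors and co-receptors, 7 of 11 FGF response genes, 2 of 4 other FGF ligands, 5 of 10 Nodal receptors and mediators, 5 of 7 Nodal-related genes and 4 of 8 primed-state genes at least 2-fold higher, beside 30.8% of all genes. In the same comparison 3 of the 8 primed-state genes, 2 of the 10 Nodal receptors and mediators and 1 each of the FGF receptors and FGF response genes were at least 2-fold lower, beside 14% of all genes.

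CPCC cells were then divided by 50 CPM of Pou5f1 and of Zfp42, among the 169 cells with 100000 counts or more. Both genes were high in 65 cells (53 of pool 1 and 12 of pool 2), Pou5f1 alone in 14 (5 and 9), Zfp42 alone in 4 (1 and 3) and neither in 86 (19 and 67). These are ranges of a level and not cell types, since 28 cells lay within 2-fold of the Pou5f1 mark and 16 within 2-fold of the Zfp42 mark. In mESC, 182 of 203 cells had both genes high and 1 had Pou5f1 alone. The cells with Pou5f1 alone had lower totals, with a median of 756629 counts against 1439040 in cells with both.

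Relative to the 90 Pou5f1-low cells, 5 members were at least 2-fold higher in the 79 Pou5f1-high cells, beside 18.5% of 16222 genes. They were Fgf4 (115 against 3.80 CPM, log2 ratio 4.60), Tdgf1 (692 against 152, 2.18), Otx2 (39.5 against 8.44, 2.10), Lefty2 (93.6 against 26.6, 1.78) and Nodal (85.3 against 25.5, 1.70). Lefty1 (0.87), Fgf5 (0.81), Pou3f1 (0.41) and Fgf8 (-0.37) lay within 2-fold. The pools hold different shares of Pou5f1-high cells, and all 9 members were at least 2-fold higher within pool 2 (21 against 70 cells), beside 20.6% of 16350 genes. In pool 2, Fgf5 was at 135 against 20.7 CPM and Fgf8 at 33.6 against 9.39 CPM. In pool 1 (58 against 20 cells) 7 members were at least 2-fold higher, beside 20.8% of 15627 genes, and the exceptions were Fgf8 (0.371 CPM against 0) and Pou3f1 (9.34 against 14.4 CPM). The Pou5f1-low cells held 10495 CPM of mesenchyme and smooth muscle genes and 3176 CPM of macrophage genes, against 1063 and 47.2 CPM in the Pou5f1-high cells. The medians over cells were 7336 and 49.9 CPM for mesenchyme genes but 15.8 and 1.58 CPM for macrophage genes, whose sums came from few cells.

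Within the Pou5f1-high cells, Fgf5, Fgf8 and Pou3f1 had their highest levels in the 14 cells with Zfp42 under 50 CPM. Fgf5 was at 170 CPM in the Zfp42-low and 11.0 CPM in the 65 Zfp42-high cells, with detection in 9 of 14 (64.3%, 35.1 to 87.2) and 16 of 65 cells (24.6%, 14.8 to 36.9). Its values in the 14 cells ran from 0 over a median of 62.7 to 826 CPM. Fgf8 was at 45.1 and 0.355 CPM, detected in 6 of 14 and 6 of 65 cells. None of the 65 Zfp42-high cells exceeded 6.05 CPM of Fgf8, whereas 5 of the 14 Zfp42-low cells held 50 CPM or more. Pou3f1 was at 42.5 and 8.30 CPM, detected in 12 of 14 (85.7%, 57.2 to 98.2) and 38 of 65 cells (58.5%, 45.6 to 70.6).

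Summed over both pools, Lefty2, Lefty1 and Nodal were also higher in Zfp42-low cells, by less. Lefty2 was at 227 against 76.7 CPM (log2 ratio 1.55), Lefty1 at 306 against 132 (1.21) and Nodal at 162 against 75.5 (1.10). A single cell carried 66.3% of the Lefty2 counts of the Zfp42-low cells, and 1 cell carried 41.7% of the Lefty1 counts of the Zfp42-high cells. Lefty2 was level in pool 2 (125 against 124 CPM) and higher in pool 1 (343 against 71.3 CPM). Otx2 (71.6 against 35.4 CPM, 0.99) and Tdgf1 (1152 against 634, 0.86) stayed under 2-fold. Within the pools Otx2 was nearly level, at 24.2 against 25.8 CPM in pool 1 and 113 against 119 CPM in pool 2, and pool 2 gave 9 of the 14 Zfp42-low and 12 of the 65 Zfp42-high cells. Fgf4 went the other way, at 67.9 against 121 CPM (-0.83). In all, 6 of 9 members were at least 2-fold higher in the Zfp42-low cells, beside 13.8% of 15388 genes, and none was at least 2-fold lower, beside 14.2%. Without the cell with most counts of the gene in each class, 4 members stayed at least 2-fold higher (Fgf5, Fgf8, Lefty1 and Pou3f1) and Fgf4 was at least 2-fold lower. With each cell given equal weight, Fgf5, Fgf8, Nodal and Pou3f1 were at least 2-fold higher, and Lefty2 (0.90) and Lefty1 (0.67) were not.

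The pools differed here, and Fgf5, Fgf8, Nodal and Lefty1 were at least 2-fold higher in Zfp42-low cells within pool 2 and not within pool 1. In all, 5 members were so in pool 2, beside 19.7% of 15362 genes, and 2 in pool 1 (Lefty2 and Pou3f1), beside 9.67% of 14724 genes. In pool 2 (9 Zfp42-low against 12 Zfp42-high cells) Fgf5 was at 306 against 21.3 CPM, and Fgf8 was at 84.3 CPM against 0 counts. Nodal was at 230 against 84.4 CPM there and Lefty1 at 498 against 172 CPM. In pool 1 (5 against 53 cells) Fgf5 was at 12.4 against 9.79 CPM, with 1 of the 5 cells holding all of it, Fgf8 at 0 against 0.396 CPM and Lefty1 at 85.1 against 127 CPM. Pou3f1 was the member that was over 2-fold higher in both pools, at 28.4 against 8.09 CPM in pool 1 and 54.8 against 10.2 CPM in pool 2. Fgf4 was lower in both, at 79.2 against 121 and 58.0 against 123 CPM. Nanog and the naive genes Klf2, Esrrb and Klf4 are given as chosen after their values were seen. Nanog, a general pluripotency gene, was lower in the Zfp42-low cells of both pools, at 106 against 419 and 200.1 against 516 CPM, as was the naive gene Klf2, at 82.2 against 217 and 5.81 against 87.5 CPM. Esrrb was at 77.9 against 92.6 CPM in pool 1 and 0.291 against 59.6 CPM in pool 2, and Klf4 at 34.1 against 22.5 and 0.145 against 8.76 CPM.

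**Figure D2:**
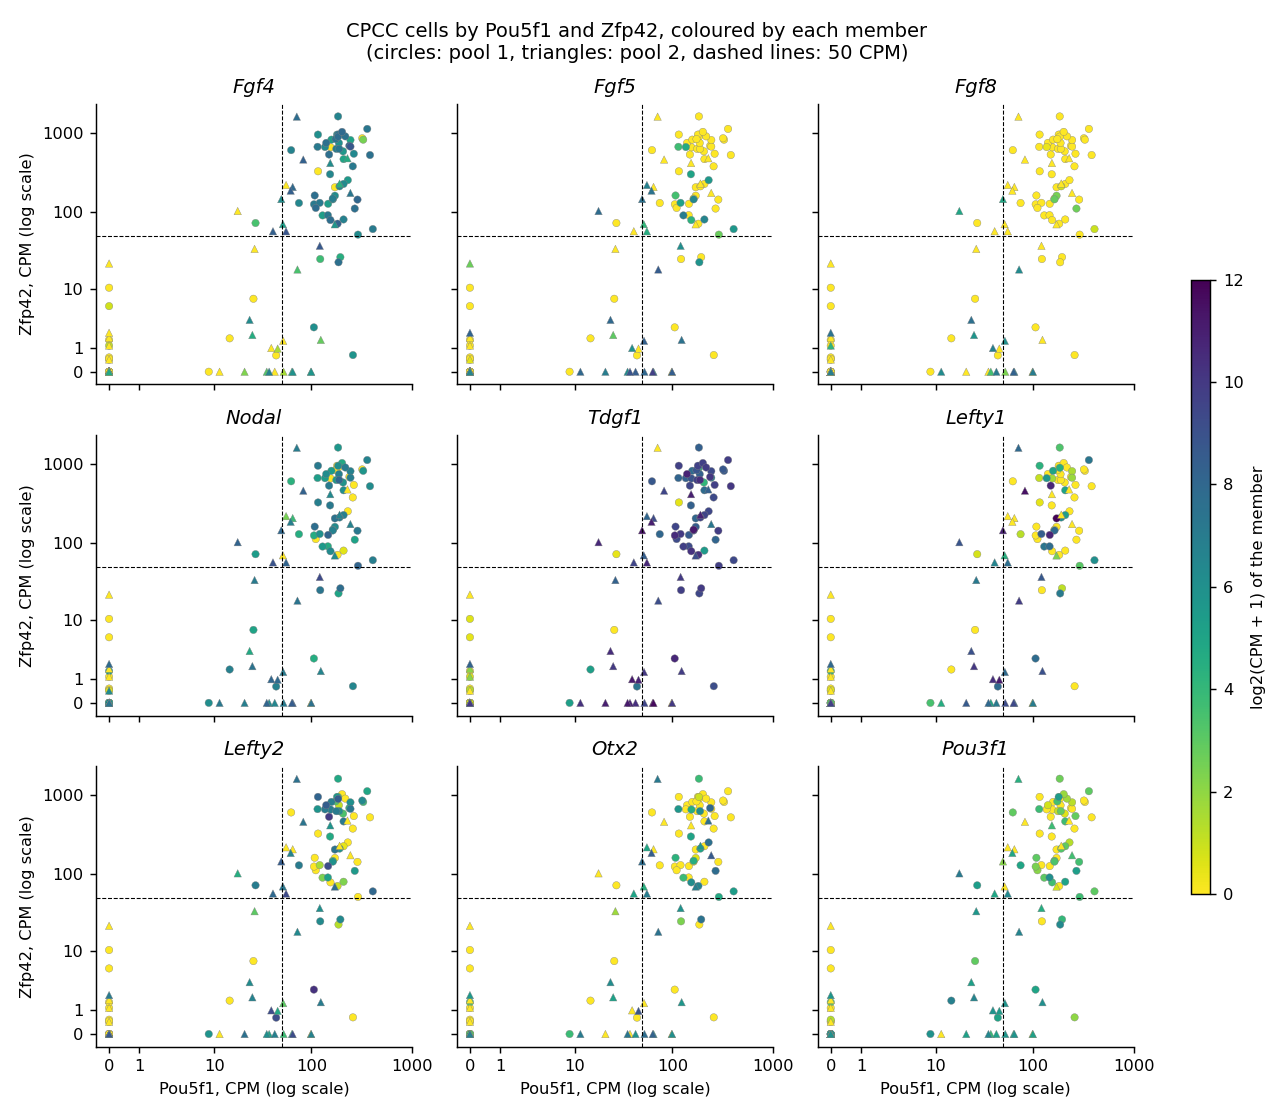
CPCC cells with 100000 counts or more by their Pou5f1 (x) and Zfp42 (y) CPM on log scales, 1 panel per member, coloured by log2(CPM + 1) of that member, with pools as symbols and dashed lines at 50 CPM. Fgf4 filled the upper right of its panel (65 cells), while high Fgf5 and Fgf8 values lay mostly in triangles (pool 2) with little Zfp42.

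The class with Pou5f1 and Zfp42 high was present in both mESC and CPCC and could be set side by side. It held Fgf4 at 131 CPM in mESC and 121 CPM in CPCC, Nodal at 83.0 and 75.5 CPM, Tdgf1 at 587 and 634 CPM and Otx2 at 40.0 and 35.4 CPM. All 4 lay within 2-fold in this class, and of these Fgf4 was over 2-fold lower in the whole culture. Lefty2 (199 and 76.7 CPM), Lefty1 (36.9 and 132 CPM), Pou3f1 (2.07 and 8.30 CPM) and Fgf5 (0.260 and 11.0 CPM) differed within the class by over 2-fold, and Fgf8 was at 0.313 and 0.355 CPM. So 3 members were higher in the CPCC class, beside 8% of 14864 genes, and 1 was lower, beside 8.3%. For Lefty1 the single Zfp42-high cell described above held a large part of the counts of the CPCC class, and the ratio without that cell is not given. Fgf5 was detected in 2 of 182 mESC and 16 of 65 CPCC cells of this class.

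Pou5f1-low cells were not empty of the members. The 86 cells low in both genes held 60.1% of the Fgf8 counts of the 169 cells divided above, 32.5% of Fgf5, 37.5% of Pou3f1 and 1.47% of Fgf4. Being 86 of 169 cells, they held less Fgf5, Pou3f1 and Fgf4 than their share of cells, and somewhat more Fgf8. Their share of all reads is not given, so no enrichment is read from the Fgf8 value. Within the 86 cells, 13 had 50 CPM of Tdgf1 or more, 12 of them from pool 2, with a median total of 960469 counts. This split used Tdgf1, so its level there is no result. The 13 cells held Lefty1 at 692 CPM, Lefty2 at 237, Nodal at 157, Fgf5 at 134, Fgf8 at 81.3, Otx2 at 69.9 and Pou3f1 at 47.0 CPM. Summed over the remaining 73 cells, each of these 7 members was at 4.68 CPM or less, though single cells reached 131 CPM of Nodal and 114 CPM of Pou3f1. Nodal and Lefty1 were detected in all 13 cells and Fgf5 in 9 (median 76.3 CPM). Fgf4 was low at 14.5 CPM.

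Those 13 cells lay below the Pou5f1 mark and not at 0. Pou5f1 was detected in 11 of them at 30.9 CPM, Nanog in all at 378 CPM and Dnmt3b, a methyltransferase of primed cells, in 12 at 192 CPM, while Zfp42 was at 2.18 CPM. The 73 others held 0.459 CPM of Pou5f1, 0.798 CPM of Nanog and 7521 CPM of the smooth muscle actin Acta2, which the 13 cells held at 116 CPM. The 13 cells also held the smooth muscle gene Tagln at 335 CPM, the macrophage gene C1qb at 168 and the collagen gene Col1a1 at 0.0779 CPM. The Pou5f1-high cells held them at 212, 8.09 and 2.59 CPM. C1qb was detected in 6 of the 13 cells. The mark at 50 CPM therefore passed through a group of cells with Fgf5, Fgf8 and the Lefty genes. With a mark of 10 CPM all 9 members were at least 2-fold higher in the Pou5f1-high cells (96 against 73). With a mark of 200 CPM only Fgf4 and Otx2 were so (23 against 146). Shares of all genes at these marks are not given.

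The number of members detected per cell summarised these classes. The median was 5 of 9 in Zfp42-high and 7.5 in Zfp42-low cells with Pou5f1, 7 in the 4 cells with Zfp42 alone, and 1 in cells with neither, of which 31 held none. At least 7 members were found in 12 of 65, 10 of 14, 3 of 4 and 10 of 86 cells.

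**Figure D3:**
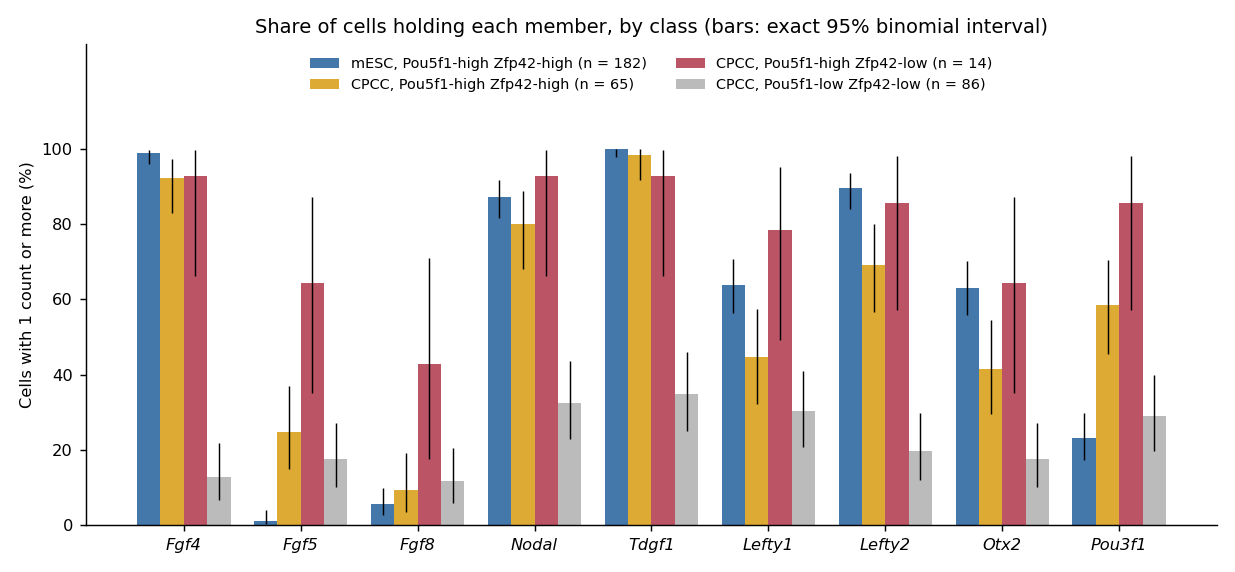
Share of cells with 1 count or more of each member in mESC with Pou5f1 and Zfp42 high and in 3 classes of CPCC cells, with exact 95% binomial intervals over the cells of 1 sample. Fgf5, Fgf8 and Pou3f1 had their highest shares in the 14 Zfp42-low cells (64.3, 42.9 and 85.7%), and Fgf4 its lowest in the 86 cells low in both genes (12.8%).

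Pathway genes outside the 9 members were compared between the Zfp42 classes, with 13.8% of all genes at least 2-fold higher in Zfp42-low cells and 14.2% lower. Of 12 FGF response genes 3 were higher and none lower, of 7 FGF receptors and co-receptors 1 was higher and 2 lower, and of 9 Nodal receptors and mediators 2 were higher and 1 lower. Of 8 Nodal-related genes 2 were higher and 1 lower, and of 11 other primed-state genes 4 were higher and none lower. Most of these counts lay within 2 genes of what the share of all genes gives for lists of this size. Of 10 naive genes, 9 were lower, Zfp42 itself among them.

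Several of the genes behind these counts did not keep their direction within both pools, and the genes named were chosen after their values were seen. Dusp6 was at 338 against 46.8 CPM over both pools, at 557 against 36.1 CPM in pool 1 and level at 147 against 140 CPM in pool 2. Spry2, another antagonist of the pathway, was higher in pool 1 (56.3 against 14.7 CPM) and not in pool 2 (16.1 against 19.4 CPM). The activin receptor Acvr2b, Smad3, Pmepa1 and Car4 had the opposite order in the pools. Acvr2b had a log2 ratio of -2.23 in pool 1 and 3.56 in pool 2 (193 against 15.4 CPM), and Smad3 was at 0 against 4.07 and 29.2 against 10.2 CPM. Pmepa1 was at 3.84 against 8.03 and 87.6 against 25.0 CPM, and Car4 at 14.04 against 34.7 and 640.0 against 92.6 CPM. Genes with the same order in both pools were the FGF antagonist Il17rd (30.9 against 9.63 and 85.9 against 16.0 CPM), the SOX factor Sox3 (6.85 against 1.11 CPM and 7.55 CPM against 0) and, lower in Zfp42-low cells, the receptor Fgfr2 (0.501 against 5.62 and 0.581 against 6.26 CPM). In pool 1, 7 of 12 FGF response genes were at least 2-fold higher, beside 9.67% of all genes, and none was lower. In pool 2, 3 of the 12 were higher, near the 19.7% of all genes, and 4 were lower. Of the 10 naive genes, 4 were lower in pool 1 and 9 in pool 2, in both with Zfp42, which defined the classes, among them. The share of all genes lower within a pool is not given, so these counts of lower genes are not set against it.

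Mesenchyme and smooth muscle genes summed to 239 CPM in Zfp42-low and 1168 CPM in Zfp42-high cells, with Postn at 0 in the former. The medians over cells were 44.2 and 51.1 CPM, and single cells reached 1305 and 19455 CPM, so few cells set the difference of the sums. Neuroectoderm genes summed to 24.2 and 9.24 CPM, with 4 of the 7 listed genes at 0 in both.

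The balance of the antagonists differed between the cultures. Lefty1 made up 16.8% of the counts of both Lefty genes in mESC (pools 17.6, 14.2 and 17.7%) and 67.0% in CPCC (pools 55.9 and 77.8%). Without the 5 CPCC cells with most Lefty1 the share was 53.9%. Among cells with 20 or more counts of the pair, Lefty1 was the more abundant in 12 of 165 mESC and in 36 of 71 CPCC cells. The CPCC pools differed, with 12 of 38 such cells in pool 1 (median share of Lefty1 in a cell 15.2%) and 24 of 33 in pool 2 (78.8%), so most cells of pool 1 held more Lefty2. Without the cell with most Lefty1 the share was 41.9% in pool 1 and 76.6% in pool 2. In CPCC this was so for 12 of 37 cells with both Pou5f1 and Zfp42 high, 8 of 12 Zfp42-low cells and 14 of 17 cells with neither. The mESC share differed little between pools, and the CPCC share of summed counts was higher in both pools than in any mESC pool, also without that cell.

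The tables had not been counted alike, which touches this balance. Of the Lefty1 values above 0, 43.5% were not whole numbers in mESC, and the CPCC table held whole numbers only. The part of counting in the difference between mESC and CPCC was not tested. Within CPCC, counted in 1 way, the share was 55.9% in pool 1 and 77.8% in pool 2. In CB only 12 cells held either gene, 9 of them Lefty1 alone.

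**Figure D4:**
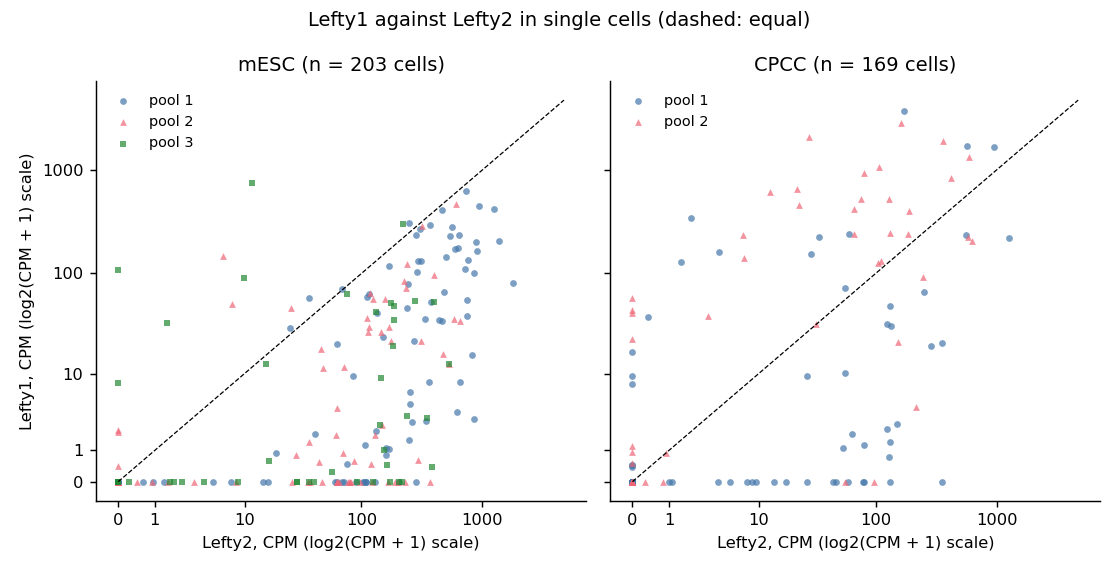
Lefty1 (y) against Lefty2 (x) CPM in single mESC and CPCC cells with 100000 counts or more, on log2(CPM + 1) scales with the line of equal values dashed and pools as symbols. Most mESC lay below the line in all 3 pools, and CPCC cells lay on both sides, with pool 2 mostly above.

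Across CPCC cells many of the members varied together. These correlations are Spearman's rho of CPM over 169 cells that share libraries and depth, given as a description. Nodal went with Tdgf1 (0.69), Lefty2 (0.62) and Lefty1 (0.60), Lefty1 with Lefty2 (0.69) and Fgf5 with Fgf8 (0.58). The Lefty genes share stretches of sequence, and the part of shared reads in the values of this pair, here and below, was not tested. Of 24 cells with Fgf8, 19 held Fgf5 (79.2%), and these were 45.2% of the 42 cells with Fgf5. Correlations with the total counts of a cell lay between -0.28 and -0.07. In pool 2 Nodal and Tdgf1 reached 0.80, and in pool 1 0.35.

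The values differed in cells with Pou5f1. Among the 79 Pou5f1-high cells Nodal and Tdgf1 had a rho of 0.29 (0.11 and 0.55 within pools 1 and 2), and Tdgf1 had 0.04 with Lefty1 and 0.00 with Lefty2. Lefty1 with Lefty2 had 0.59 (0.54 in the 58 cells of pool 1 and 0.49 in the 21 of pool 2), and Fgf5 with Fgf8 had 0.49 (0.24 and 0.74). With Zfp42 the values over both pools were -0.54 for Fgf5, -0.44 for Pou3f1, -0.40 for Fgf8, -0.34 for Otx2 and 0.21 for Fgf4. Within pools 1 and 2 they were -0.36 and -0.66 for Fgf5, -0.37 and -0.55 for Pou3f1, -0.18 and -0.70 for Fgf8, -0.25 and -0.082 for Otx2 and 0.046 and 0.34 for Fgf4. The negative values of Fgf5 and Pou3f1 were thus found in both pools, and those of Otx2 were weak within each. In mESC, over 203 cells, Lefty1 with Lefty2 was the pair of members with the highest value (0.63), Nodal had 0.14 with Lefty1 and 0.24 with Lefty2, and Nodal with Tdgf1 had -0.12.

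**Figure D5:**
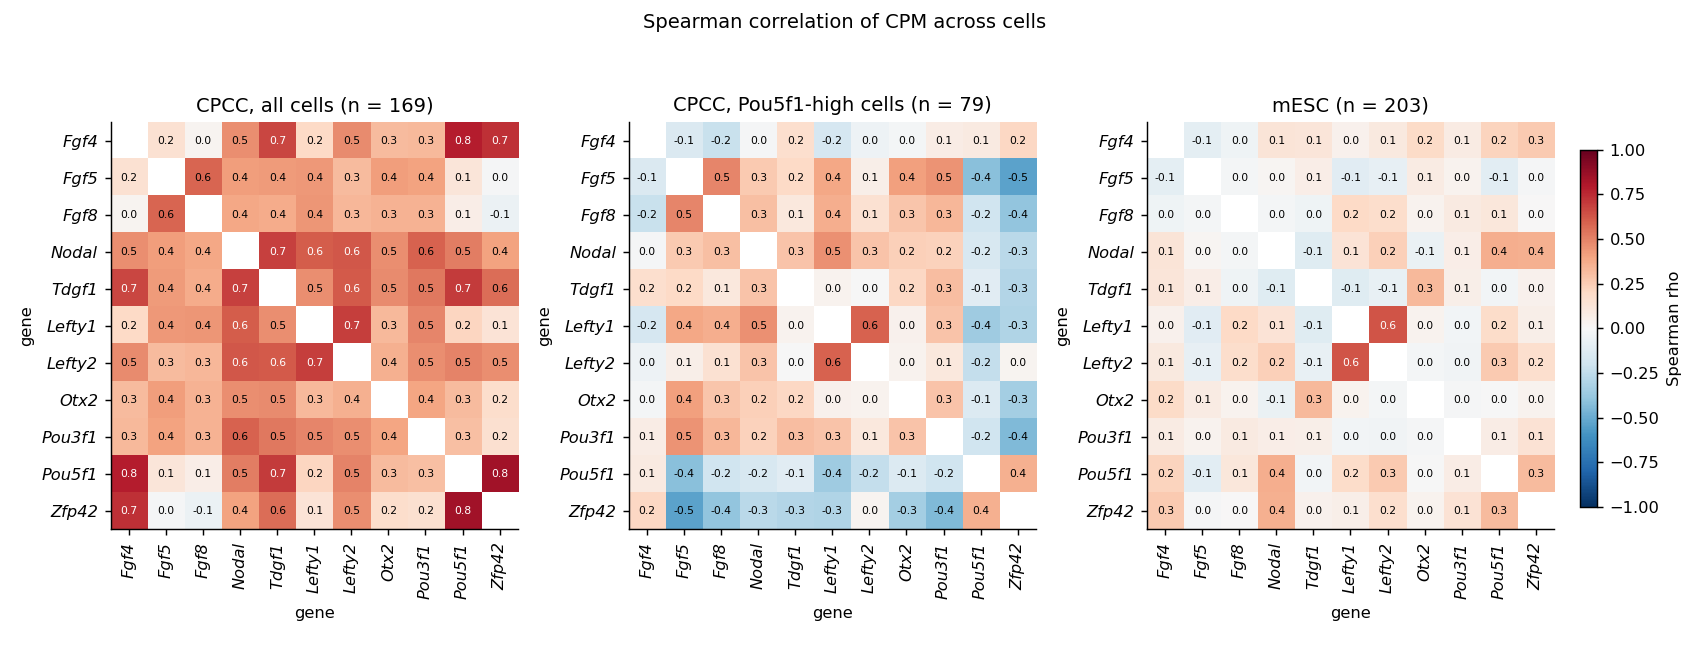
Spearman correlation of CPM between members, Pou5f1 and Zfp42 over all CPCC cells, Pou5f1-high CPCC cells and mESC (colour and printed value, red positive, blue negative). The block of positive values among Nodal, Tdgf1 and the Lefty genes in all CPCC cells narrowed to the Lefty pair in mESC (0.63). The part of reads shared by the Lefty genes in that value was not tested. Fgf5 had a negative value with Zfp42 in Pou5f1-high cells (-0.54 over both pools, -0.36 and -0.66 within pools 1 and 2).

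The genes nearest each member, among 13085 genes, were named by the highest rho over CPCC cells. Fgf4 was nearest to Pou5f1 (0.79), Mkrn1 (0.79) and Ooep (0.78). Fgf5 was nearest to 2610528J11Rik (0.59), the ligand Fgf15 (0.59), Wipf3 (0.57), Car4 (0.51) and Rab25 (0.47), and for Fgf15 the value was 0.62 in both pools. Fgf8 was nearest to Fgf5 itself, then to Wipf3 (0.49) and Fgfbp1 (0.49). Within pools 1 and 2 these values were 0.27 and 0.69 for Fgf5, 0.23 and 0.55 for Wipf3 and 0.11 and 0.68 for Fgfbp1. Over the neighbours named here, values were mostly higher in pool 2, as for Nodal with Epcam (0.57 and 0.82), Tdgf1 with Epcam (0.43 and 0.85) and Otx2 with Snhg14 (0.37 and 0.63). Nodal and Tdgf1 were both near to Epcam, an epithelial adhesion molecule (0.77 and 0.81). Tdgf1 was nearest to its pseudogene Tdgf1-ps1 (0.96), with which it shares stretches of sequence, and the part of shared reads was not tested. Lefty2 was nearest to Lefty1, then Nanog (0.68), Rbpms2 (0.65) and Foxh1 (0.64), the cofactor of Smad proteins. Otx2 was nearest to Snhg14 (0.53). Pou3f1 was nearest to Nodal (0.59), Cdh1 (0.59) and Epcam (0.58), but with Nodal the value was 0.09 in pool 1 and 0.81 in pool 2.

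In CB the members were held by few cells. Of 219 cells with 100000 counts or more, 151 held none of the 8 listed members, 66 held 1 to 3 and 2 held 4 or more. Nodal, Fgf5 and Lefty2 were found in pool 2 alone. A single cell of pool 2 had Fgf5 at 424, Fgf8 at 382, Nodal at 451, Tdgf1 at 852 and Otx2 at 140 CPM with no Zfp42, Sox2 or Nanog, and Pou5f1 was not listed for CB. Another cell of pool 2 had Nodal at 69.1, Lefty1 at 195, Lefty2 at 254, Otx2 at 180 and Sox2 at 66.7 CPM.

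Otx2, a head and forebrain factor as well as an epiblast one, was the member with most CB cells. It was detected in 47 of 232 cells (20.3%, 15.3 to 26.0), of which 28 also held Sox2 (59.6%, against 31.9% of all CB cells) and 9 held Fgf8. Of the 16 cells with Fgf8, 56.3% held Otx2. Summed levels in the 47 cells and the 185 others were 99.4 and 42.6 CPM for neuroectoderm genes, 79.8 and 10.8 CPM for primitive streak genes, 3894 and 8499 CPM for mesenchyme and smooth muscle genes and 187 and 324 CPM for cardiomyocyte genes. Pool 2 gave 26 of the 47 cells. Primitive streak genes were at 126 and 23.6 CPM in the cells of pool 2 with and without Otx2, 4.37 and 2.11 CPM in pool 1 and 0 and 5.79 CPM in pool 3, so their difference was that of pool 2. Neuroectoderm genes were higher in the cells with Otx2 in each pool, at 86.8 and 51.7, 75.2 and 34.4, and 177 and 44.5 CPM. Mesenchyme genes were lower in each, at 10665 and 11948, 1018 and 2395, and 7439 and 11212 CPM. Cardiomyocyte genes went both ways, at 556 and 36.5 CPM in pool 1 and 159 and 956 CPM in pool 2, and were level in pool 3 (14.1 and 16.0 CPM). Visceral and definitive endoderm genes were at 129 and 922 CPM in all, from 195 and 289 CPM in pool 1, 108 and 2486 in pool 2 and 143 and 126 in pool 3. The part of these lists in the result was not tested. None of the 47 cells held Zfp42.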

How the data were processed

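The authors captured single cells on Fluidigm C1 chips, made full-length cDNA with SMART-Seq chemistry and indexed it with Nextera XT, without molecular identifiers. Reads were aligned to GRCm38 (mm10) with STAR, version 2.7 per the submitters' processing notes, in Partek Flow with Ensembl annotation. The mESC and CB tables were deposited as estimated counts per gene and cell, not scaled, with 32.0% and 34.6% of the values above 0 not whole. The CPCC table was deposited as counts in whole numbers only, which means rounding or a different count. How reads were divided between genes, and whether strand was used, is not given in the sources used here. A table lists only some genes, and a gene not listed has no value and was not set to 0.

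Left out of the CPCC table were 208 rows without a gene, 23 symbols turned into dates (0.139% of counts) and 2 empty columns that match no sample. Counts were summed over cells and scaled to CPM. Log2 ratios used a pseudocount of 1 CPM and genes with 1 CPM or more in either side. Cells with 100000 counts or more entered classes, correlations and figures. Shares have Clopper-Pearson and summed counts Poisson intervals at 95%, which cover counting error only and take cells as independent draws within 1 sample. Total counts per cell ran from 569 to 8105510 in mESC, 8102 to 5705830 in CPCC and 4 to 4284770 in CB. Shares were repeated after thinning cells to 430000 counts. With 1 sample per group no test was run and no p-value is given.

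The members and lists were chosen with earlier results of these data known. Named are the 9 members, up to 4 genes per pathway list (the 2 highest and 2 lowest log2 ratios of CPCC over mESC among genes with 10 CPM or more in either) and up to 5 genes per member by Spearman's rho of 0.4 or more among genes detected in 20% of CPCC cells. Further genes were named after their values were seen. They were Fgf3, Klf2, Klf4, Esrrb, Nanog, Sox2, Dnmt3b, Acta2, Tagln, C1qb, Col1a1 and the pathway genes given for the Zfp42 classes. Alternatives were TMM factors (edgeR 4.0.16, R 4.3.3), median-of-ratios factors, equal weight per cell, other pseudocounts and marks, no mitochondrial genes, a depth limit and leaving out each pool. The code (Python 3.11.15, numpy 2.4.6, pandas 2.3.3, scipy 1.17.1) was tested on simulated data. Doublets were not called.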

Additional observations from a re-analysis of the deposited data

How the results depend on the processing

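Counts here are of members at least 2-fold apart, and values are log2 ratios. TMM factors, median-of-ratios factors, a depth limit of 100000 counts and totals without mitochondrial genes changed no direction and no call among the 17 ratios between mESC and CPCC or CB. A pseudocount of 10 CPM left 2 members higher in CPCC and 1 higher in CB. Without CPCC pool 2, 1 member was lower in CPCC (Fgf4 was at -0.56 and no longer counted), and Fgf8 was at -0.020. Without CB pool 2, 1 member was higher in CB, and Fgf5 was at -0.31. Without the cell with most counts of the gene, an alternative chosen after seeing the data, 1 member was higher in CB. Between Pou5f1-high and Pou5f1-low cells, 9 members were higher with a mark of 10 CPM, 2 with a mark of 200 CPM (Lefty2 at -0.76) and 9 in pool 2 alone. Between Zfp42-low and Zfp42-high cells, 3 members were higher with a mark of 200 CPM (Lefty1 at -0.38) and 2 in pool 1 alone (Fgf8 at -0.48, Lefty1 at -0.57). There, 1 member was lower with a mark of 10 CPM, in pool 2 alone and without the cell with most counts, which was Fgf4 each time. The cause was not tested. Leaving out mESC pool 1 gave 3 members lower in CPCC, Otx2 among them. The share of Lefty1 without 5 cells and the values within pools for correlations, CB marker sums, pathway genes, the Lefty1 share without its top cell and shares of all genes were also chosen after seeing the data.

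No paired analysis was possible because each culture was 1 sample and no test was run. With 1 sample per culture, differences between cultures cannot be told apart from differences between samples. Fgf5, Fgf8 and the Zfp42-low class rest on few cells.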
